A study of Mus musculus with 2 samples.

Results

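The EGF receptor family and its ligands were examined in 4T1 cells, a mouse mammary carcinoma line. The members were 10 genes chosen by symbol, namely the 4 receptors Egfr, Erbb2, Erbb3 and Erbb4 and the 6 ligands Areg, Ereg, Hbegf, Tgfa, Btc and Nrg1, of 21911 genes in the table. The study treated cultured 4T1 cells for 48 h with PBS, the control, or with potassium oxalate, a salt of the dicarboxylic acid whose accumulation in lung it followed, and sequenced polyadenylated RNA of 1 library per condition. The dose of oxalate was 20 µM in the paper and in the sample characteristics, whereas the treatment protocol and the design text of the labels give 20 mM. Both groups are the same cell line in culture, with no other treatment named, so that the samples hold no lung tissue. All 10 members were found in the table, and 8 of them averaged 1 FPKM or more over both libraries.

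The EGF receptor family consists of tyrosine kinase receptors that pair at the cell surface when a ligand binds. EGFR and ERBB4 bind ligands and signal by themselves, ERBB2 binds no known ligand and acts as a partner, and ERBB3 binds neuregulins but has a weak kinase. Ligands are made as membrane proteins and are released by ADAM proteases, so that a cell which makes a ligand and its receptor can stimulate itself, and the receptors feed the MAPK and PI3K pathways in mammary epithelium and its tumors.

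What the ligands share is the EGF-like module, a short stretch with 6 cysteines that contacts the receptor. Coding sequences of this module are shown for 3 of the ligands transcribed in these cells that bind EGFR, for Ereg, which was listed at 0, and for Nrg1, which binds ERBB3 and ERBB4. Hbegf, also a transcribed ligand of EGFR, was not searched. They were read from GENCODE M21 transcripts (GRCm38), and capitals mark the cysteine codons.
Areg: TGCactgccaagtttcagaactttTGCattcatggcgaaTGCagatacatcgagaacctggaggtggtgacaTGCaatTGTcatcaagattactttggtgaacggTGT
Tgfa: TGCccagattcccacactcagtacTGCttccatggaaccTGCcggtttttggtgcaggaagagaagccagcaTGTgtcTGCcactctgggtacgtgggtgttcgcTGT
Btc: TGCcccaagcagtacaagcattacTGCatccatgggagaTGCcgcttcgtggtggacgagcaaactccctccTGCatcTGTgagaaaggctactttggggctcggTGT
Ereg: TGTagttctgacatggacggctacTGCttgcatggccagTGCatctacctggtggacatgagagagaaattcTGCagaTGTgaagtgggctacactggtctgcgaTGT
Nrg1: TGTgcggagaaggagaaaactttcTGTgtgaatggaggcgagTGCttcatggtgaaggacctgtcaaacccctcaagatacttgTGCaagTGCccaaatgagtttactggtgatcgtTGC
The module lay at chr5:91143614-91144364 on the plus strand in Areg, chr6:86263200-86269960 on the plus strand in Tgfa, chr5:91362421-91366197 on the minus strand in Btc, chr5:91088496-91089111 on the plus strand in Ereg and chr8:31837698-31849398 on the minus strand in Nrg1. Each of these spans holds an intron, since the module was split over 2 coding exons in every one of the 5 genes, after 77 bases in Areg, Tgfa, Btc and Ereg and after 89 in Nrg1. The 4 EGFR ligands had 108 bases, with 7, 4, 10, 1 and 8 codons between the cysteines. The modules were found by a search pattern that fixed the gaps of 7, 1 and 8 codons in advance. It limited the remaining gaps to 4 to 5 and 10 to 13 codons, so that the spacing was largely set by the search. Nrg1 had 120 bases, with 5 codons in the second gap and 13 in the third. Within the range searched, Ereg, although listed at 0, had the same gaps of 4 and 10 codons as the transcribed Areg, Tgfa and Btc.

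Values are FPKM as the authors deposited them, which divide the fragments of a gene by its transcript length and by the size of the library. The low values moved in steps from which about 56900000 reads were estimated for PBS and 36400000 for oxalate. The epithelial markers Krt8, Krt18, Krt19, Krt14, Cdh1 and Epcam lay between 71.09 and 429.31 FPKM in both libraries. Among the leukocyte markers reported, Ptprc, Adgre1 and Cd3e were listed at 0 and Cd68 was at 7.79 with PBS and 7.11 with oxalate, and 3 endothelial markers were at 0.05 FPKM or less. Among 5 fibroblast markers Col1a1 was at 143.48 with PBS and 144.61 with oxalate, whereas the other 4 were at 1.93 or less. Fold changes are log2((oxalate + 1)/(PBS + 1)) over the 10267 genes that averaged 1 FPKM or more, a scale that understates the change of low genes. With 1 library on each side no difference could be tested, and the intervals given are exact (Clopper-Pearson) 95% intervals of the log2 ratio of estimated reads without a pseudocount, which cover counting error only. The libraries are bulk RNA, in which fewer cells that express a gene and less RNA per cell cannot be told apart.

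No member differed by 2-fold between the PBS and oxalate libraries. Of 8 members compared, 0 passed 2-fold and 0 passed 1.5-fold, where 0.653% and 1.99% of all genes compared did. The fold changes of the members ran from -0.096 for Areg to 0.14 for Egfr on the log2 scale, with a median of 0.078, and 6 were above 0 and 2 below. With values rescaled to TPM, so that both libraries have the same sum, 7 were above 0 and 1 below, and 57.3% of all genes compared were above 0. Over all genes compared the median as deposited was 0.0031, 50.6% were above 0, and the central 95% ran from -0.36 to 0.37. With the pseudocount of 1, Egfr had the widest change of the members. It was as wide as or wider than that of 70.4% of all genes compared. Without a pseudocount the log2 ratio of Btc, 0.19, was wider than that of Egfr, 0.18.

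**Figure D1:**
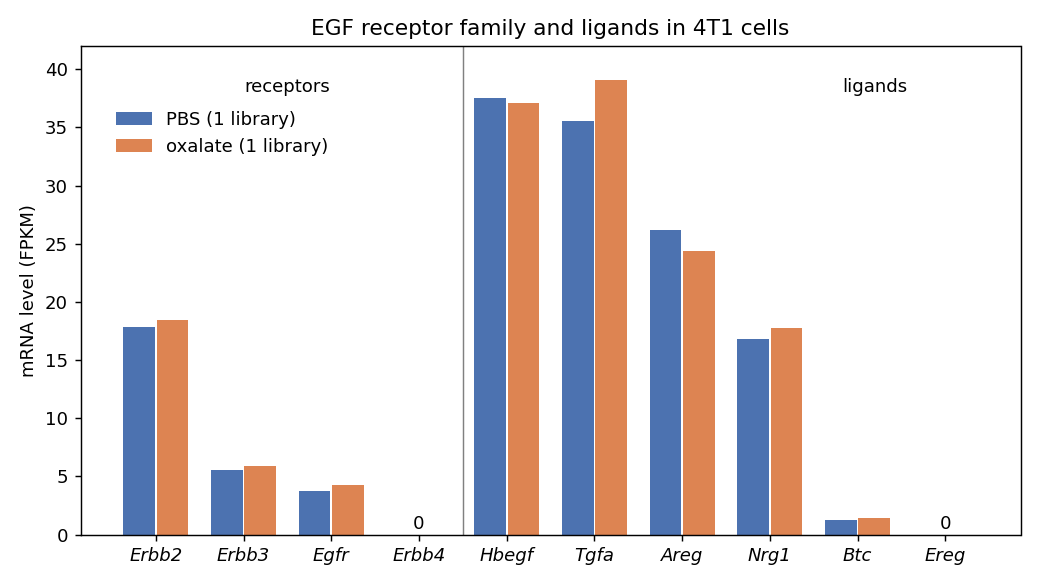
mRNA levels (FPKM, linear axis from 0) of the 4 receptors and 6 ligands in the PBS library and the oxalate library, 1 bar per library, so that no error bars can be drawn. In the deposited values Erbb2 is the highest receptor and Hbegf and Tgfa are the highest ligands in both libraries. Erbb4 and Ereg are listed at 0.

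Among the receptors, Erbb2 held most of the transcript level as deposited. Erbb2 (ENSMUSG00000062312, GRCm38 chr11:98412470-98437716), the partner receptor also known as HER2, was at 17.83 FPKM in the PBS library and 18.49 FPKM in the oxalate library, higher than 77.6% and 78.1% of all genes listed. Of the genes listed, 7979 were at 0 in both libraries. The log2 fold change of Erbb2 was 0.050, and the interval of the log2 ratio, -0.011 to 0.12, included 0. The end of Erbb2 overlaps Mien1 on the opposite strand by 9 bases.

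Erbb3 (ENSMUSG00000018166, chr10:128567523-128589652), the neuregulin receptor with the weak kinase, was at 5.53 FPKM in the PBS library and 5.9 FPKM in the oxalate library. The log2 fold change was 0.080, and the interval of the log2 ratio, -0.0093 to 0.20, included 0. Egfr (ENSMUSG00000020122, chr11:16752203-16918158), the receptor of EGF, amphiregulin and TGF-alpha, was at 3.76 FPKM in the PBS library and 4.25 FPKM in the oxalate library. Its log2 fold change was 0.14, and the interval of the log2 ratio, 0.034 to 0.32, lay above 0, so that this difference was larger than counting error, with no replicate check. With reads estimated from the shortest coding transcript the lower bound was -0.28.

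Erbb4 (ENSMUSG00000062209, chr1:68032186-69108059), a neuregulin receptor that also binds some EGFR ligands, was listed at 0 FPKM in both libraries. At the estimated depth and the mean coding length, 3 reads would give 0.0061 FPKM with PBS and 0.0095 FPKM with oxalate. Levels that round to 0 at the 2 decimals listed would not be seen. Erbb2 was 3.22 times as high as Erbb3 with PBS (counting interval 3.06 to 3.40) and 3.13 times with oxalate (2.94 to 3.34). Erbb3 was 1.47 times as high as Egfr with PBS (1.36 to 1.59) and 1.39 times with oxalate (1.27 to 1.52). As deposited, the order Erbb2, Erbb3, Egfr, Erbb4 was the same in both libraries, and Erbb2 made up 65.7% of the summed receptor FPKM with PBS and 64.6% with oxalate.

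**Figure D2:**
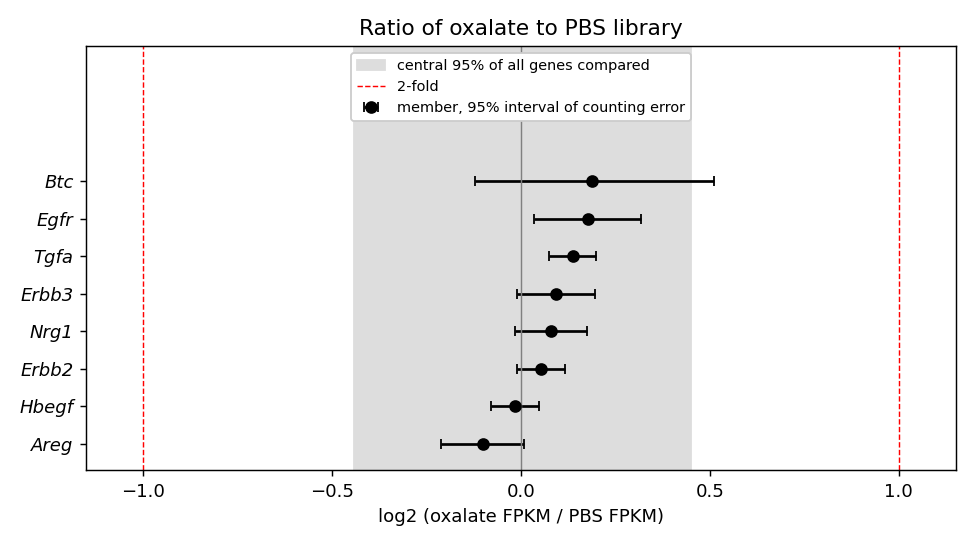
Ratio of the oxalate to the PBS library (log2 of the FPKM ratio without a pseudocount) for the 8 members above the filter, with exact 95% intervals of counting error as bars. The grey band is the central 95% of all genes compared (-0.44 to 0.45) and the dashed lines mark 2-fold. All 8 points lie inside the band. The intervals of Egfr and Tgfa lie above 0, and intervals without 0 were also common among the genes of the lists around the members.

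The deposited values of the EGFR ligands were led by Hbegf and Tgfa, although the place of Tgfa depends on the transcript length, as given below. Hbegf (ENSMUSG00000024486), which encodes the heparin-binding EGF-like growth factor, was at 37.51 FPKM in the PBS library and 37.12 FPKM in the oxalate library, and its log2 fold change was -0.015, or 0.0057 after rescaling to TPM. The interval of its log2 ratio, -0.080 to 0.049, included 0. Tgfa (ENSMUSG00000029999, chr6:86195223-86275719), which encodes TGF-alpha, was at 35.51 FPKM in the PBS library and 39.05 FPKM in the oxalate library. Its log2 fold change was 0.13, and the interval of the log2 ratio, 0.075 to 0.20, lay above 0, while the lower bound was -0.019 with the shortest coding transcript. Hbegf was the higher of the pair with PBS, by 1.06 times, and Tgfa with oxalate, by 1.05 times.

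Areg (ENSMUSG00000029378, chr5:91139599-91148432), which encodes amphiregulin, the ligand that drives duct growth in the mammary gland, was at 26.16 FPKM in the PBS library and 24.41 FPKM in the oxalate library. It had the lowest log2 fold change of the members, -0.096, and the interval of the log2 ratio, -0.21 to 0.0093, included 0. Btc (ENSMUSG00000082361, chr5:91357261-91402994), which encodes betacellulin, a ligand of EGFR and ERBB4, was at 1.22 FPKM in the PBS library and 1.39 FPKM in the oxalate library. The log2 fold change of Btc was 0.11. With an estimated 199 and 146 reads, Btc had the widest interval of the members, from -0.12 to 0.51 for the log2 ratio. No difference could therefore be detected at this depth. Ereg (ENSMUSG00000029377, chr5:91074622-91093646), which encodes epiregulin, was listed at 0 FPKM in both libraries, where 3 reads would give 0.013 FPKM with PBS and 0.020 FPKM with oxalate.

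Nrg1 (ENSMUSG00000062991, chr8:31814551-32884029), which encodes neuregulin 1, the ligand of ERBB3 and ERBB4, was at 16.84 FPKM in the PBS library and 17.8 FPKM in the oxalate library. Its log2 fold change was 0.076, and the interval of the log2 ratio, -0.015 to 0.18, included 0. Its lower bound was 0.018 with the longest coding transcript as the length. Nrg1 has 12 coding transcripts of 407 to 5415 bases in GENCODE M21, and the table gives 1 value for all of them. Between neighbours in the order of the ligands, Areg was 1.55 times as high as Nrg1 with PBS and 1.37 times with oxalate, and Nrg1 was 13.8 times as high as Btc with PBS and 12.8 times with oxalate.

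The 6 ligands summed to 117.24 FPKM with PBS and 119.77 FPKM with oxalate, and the 4 receptors to 27.12 and 28.64, so that the ligand sum was 4.32 times the receptor sum with PBS and 4.18 times with oxalate. Levels of different genes depend on the transcript length by which the authors divided. Egfr has 3 coding transcripts of 463 to 10208 bases and Tgfa has 2 of 410 to 4527. The deposited values, taken to rest on the mean coding length, which is not known, were therefore also rescaled to the longest and the shortest coding transcript, alternatives added once the values were known. At the longest, Egfr would be at 1.67 FPKM with PBS and 1.89 with oxalate, Tgfa at 19.36 and 21.29, and Nrg1 at 7.26 and 7.68. Areg would then stand above Tgfa, and the order of the receptors would not change. At the shortest, Egfr would be at 36.85 FPKM with PBS and 41.66 with oxalate, Tgfa at 213.8 and 235.11, and Nrg1 at 96.61 and 102.12. Egfr would then stand above Erbb2, and Tgfa and Nrg1 above Hbegf, so that the place of these 3 genes in the order depends on the length used.

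Which ligands and receptors the same cells transcribed was read from 10 known pairs between members. Both sides reached 1 FPKM in both libraries in 5 of them: Areg, Hbegf, Tgfa and Btc with Egfr, and Nrg1 with Erbb3. In the other 5 pairs Erbb4 or Ereg was listed at 0. The 4 transcribed EGFR ligands summed to 100.4 FPKM with PBS and 101.97 FPKM with oxalate, 26.7 and 24.0 times the level of Egfr. Nrg1 was 3.05 times as high as Erbb3 with PBS and 3.02 times with oxalate. These ratios rest on the deposited values and would change with the transcript length. With PBS, Nrg1 would be at 7.26 FPKM at the longest and 96.61 at the shortest coding transcript, beside Erbb3 at 5.53. Egfr would be at 1.67 and 36.85 FPKM. Only the pair of Nrg1 and Erbb3 remained when both sides had to reach 5 FPKM as deposited, because Egfr was below that level. These are mRNA levels, and neither surface receptor nor released ligand was measured.

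**Figure D3:**
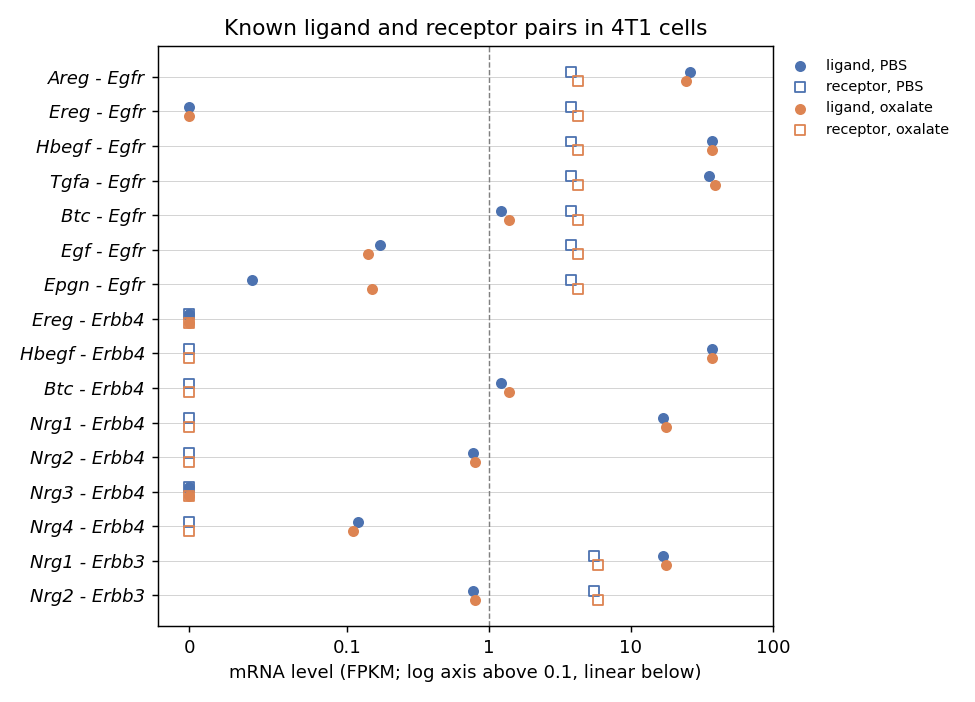
mRNA levels (FPKM, log axis above 0.1 and linear below) of 16 known ligand and receptor pairs, with filled circles for the ligand and open squares for the receptor in the PBS and oxalate libraries, 1 point per library. The dashed line marks 1 FPKM. Both sides lie to its right in 5 pairs, and every pair with Erbb4 has the receptor at 0.

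Ligands outside the members were low. Nrg2, a second ligand of ERBB3, stood at 0.77 FPKM with PBS and 0.8 with oxalate. Egf, the epidermal growth factor itself, was at 0.17 and 0.14, and Nrg4 was at 0.12 and 0.11. Epgn, which encodes epigen, stood at 0.04 FPKM with PBS and 0.15 with oxalate, an estimated 3 and 7 reads whose interval of the log2 ratio, -0.27 to 4.45, included 0. Nrg3 was listed at 0 in both libraries. With these ligands added, both sides reached 1 FPKM in the same 5 of 16 pairs.

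The EGFR ligand genes Epgn, Ereg, Areg and Btc stand next to each other among the genes listed on chromosome 5, in that order over 376 kb. Their levels differed widely. Areg was 21.4 times as high as Btc with PBS and 17.6 times with oxalate, while Ereg, whose gene ends 45953 bases before Areg on the same strand, was listed at 0. None of these 4 genes differed by 2-fold between the libraries on the scale used, and Epgn was below the filter.

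**Figure D4:**
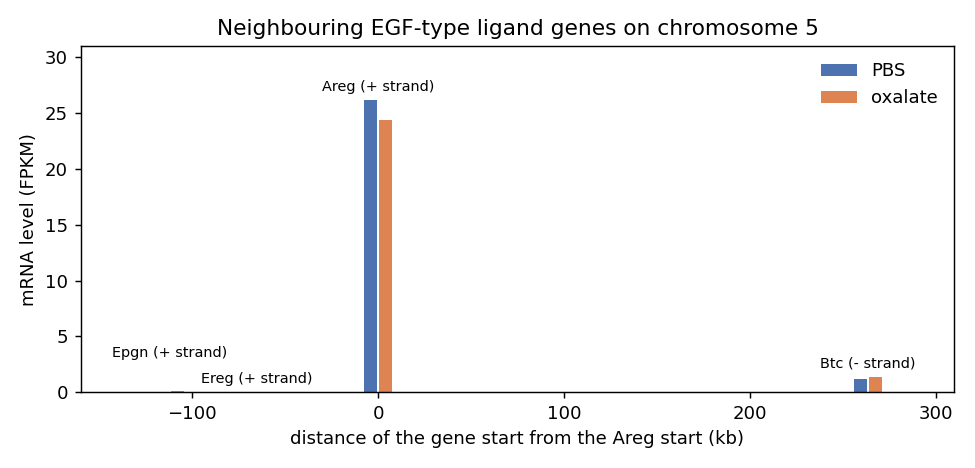
mRNA level (FPKM, linear axis from 0) of the 4 neighbouring ligand genes on chromosome 5 against the distance of their starts from the Areg start in kb, with 1 bar each for the PBS and oxalate libraries. Areg stands at 26.16 and 24.41 FPKM, Btc at 1.22 and 1.39, Epgn at 0.04 and 0.15, and Ereg at 0.

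The promoter of Areg is shown because Areg was the one gene of this cluster above 2 FPKM. The 250 bases before its start (RefSeq, GRCm38.p6, chr5:91139349-91139598, plus strand) hold TGACGTCA, the palindromic site of the CREB family, and TATAAA, the TATA box, both in capitals.
Areg: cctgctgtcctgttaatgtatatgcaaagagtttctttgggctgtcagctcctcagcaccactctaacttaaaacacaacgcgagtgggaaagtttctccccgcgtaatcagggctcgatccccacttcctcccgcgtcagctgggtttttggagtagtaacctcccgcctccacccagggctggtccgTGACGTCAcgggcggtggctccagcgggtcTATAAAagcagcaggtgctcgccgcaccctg
TGACGTCA lay 54 to 61 bases and TATAAA 26 to 31 bases before the annotated start, and they do not overlap. Of 32851 mouse promoter windows of 300 bases, which run 250 bases before to 50 after a start, 1.79% held TGACGTCA and 13.62% TATAAA on either strand. RefSeq windows were matched for 6 of the 10 members, Egfr, Erbb2, Erbb4, Areg, Tgfa and Btc, and of these Areg alone held either motif. The AP-1 site TGAGTCA, held by 5.2% of all windows, was in none of the 6, and the GC box GGGCGG, held by 35.66%, was in those of Egfr, Areg and Tgfa. A match of letters is no measurement of binding. Erbb4, listed at 0, had 17 CpG dinucleotides in its window, against 15 for Egfr, 21 for Erbb2 and Areg, 24 for Tgfa, 5 for Btc and a median of 7 over all windows.

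The genes around the receptors were read from 7 lists of 133 genes. In the 6 lists with genes above the filter 0 passed 1.5-fold in either direction, where 1.99% of all genes compared did. The counting interval excluded 0 for 2 of 8 members. It did so for 8 of 14 sheddases and their regulators, 8 of 14 co-receptors and membrane partners and 16 of 26 adaptors. The counts were 10 of 26 for inhibitors, 14 of 22 for endocytosis and sorting and 11 of 17 for growth factor response transcripts. This share was not computed over all genes compared, so that the counts cannot show whether the members or the lists differ from other genes. Of 14 sheddases, which cut ligands from the membrane, and their regulators, 10 had values above 0 and 4 below (13 and 1 after rescaling to TPM), with a median log2 fold change of 0.057. Rhbdf1, a rhomboid pseudoprotease that escorts ADAM17, was the highest at 153.5 FPKM with PBS and 153.49 with oxalate. Furin, the protease that activates ADAM precursors, was at 66.05 and 74.32 (log2 fold change 0.17), and Adam10 at 44.88 and 42.91 (-0.063). Adam17, the main sheddase of amphiregulin and TGF-alpha, stood at 15.05 FPKM with PBS and 16.06 with oxalate.

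Of 15 co-receptors and membrane partners, 14 were compared, 5 with values above 0 and 9 below (7 and 7 after rescaling to TPM), with a median of -0.021. The chaperones Hsp90ab1 and Hsp90aa1, on which ERBB2 depends, were at 5922.8 and 1041.55 FPKM with PBS and 5920.08 and 949.06 with oxalate. Among those compared, Gpc1, a heparan sulfate carrier, had the highest log2 fold change (0.077) and Muc1, a membrane mucin that binds EGFR, the lowest (-0.22, from 1.27 to 0.95 FPKM). Muc4, a membrane mucin that binds ERBB2, was below the filter at 0.26 FPKM with PBS and 0.55 with oxalate, a log2 fold change of 0.30. The interval of its log2 ratio, 0.66 to 1.51 from an estimated 84 and 114 reads, lay above 0. Of 31 adaptors and proximal effectors 26 were compared, 13 above 0 and 13 below (16 and 10 after rescaling to TPM), with a median of -0.0013. Ptpn11, the phosphatase SHP2 that carries receptor signals to RAS, had the lowest value of all list genes compared, at 51.33 FPKM with PBS and 35.63 with oxalate (log2 fold change -0.51). The adaptor Shc1 was at 50.12 and 38.87 (-0.36), the adaptor Crk at 32.27 and 40.61 (0.32), and the PI3K subunit Pik3r2 at 50.75 and 50.64. Ptpn11, Shc1 and Crk have 2, 8 and 5 coding transcripts, and the part of this in their values was not tested.

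The 26 inhibitors and turnover factors had a median of 0.024, with 17 above 0 and 9 below (22 and 4 after rescaling to TPM). Nedd4, a ubiquitin ligase, stood at 220.52 FPKM with PBS and 236.71 with oxalate, and Tnk2, a kinase that acts in EGFR degradation, had the highest value of all list genes compared, at 81.19 and 113.18 (log2 fold change 0.47, 13 coding transcripts). Socs4, which binds EGFR, was at 5.77 and 4.66 (-0.26). Among the 22 genes of endocytosis and sorting the median was 0.031, with 16 above 0 and 6 below. Ap2m1, a subunit of the clathrin adaptor, was at 213.99 and 221.49 FPKM, Rab5c, an early endosome GTPase, at 162.56 and 193.09 (0.25), the clathrin light chain Cltb at 121.5 and 145.05 (0.25), and Rab5a at 23.9 and 20.87 (-0.19).

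Of 20 transcripts that growth factors are known to induce 17 were compared, 7 above 0 and 10 below, with a median of -0.062. Ier3 was the highest at 451.65 FPKM with PBS and 458.82 with oxalate, and Ccnd1, which encodes cyclin D1, was at 298.86 and 301.26. Lif, which encodes a cytokine, had the highest log2 fold change among those compared (0.45, from 15.86 to 22.05 FPKM), and Etv5, an ETS transcription factor, the lowest (-0.41, from 15.84 to 11.7 FPKM). Egr3, a zinc finger transcription factor below the filter, stood at 0.64 FPKM with PBS and 0.37 with oxalate, and the interval of its log2 ratio, -1.36 to -0.22, lay below 0. None of these values has a replicate check.

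**Figure D5:**
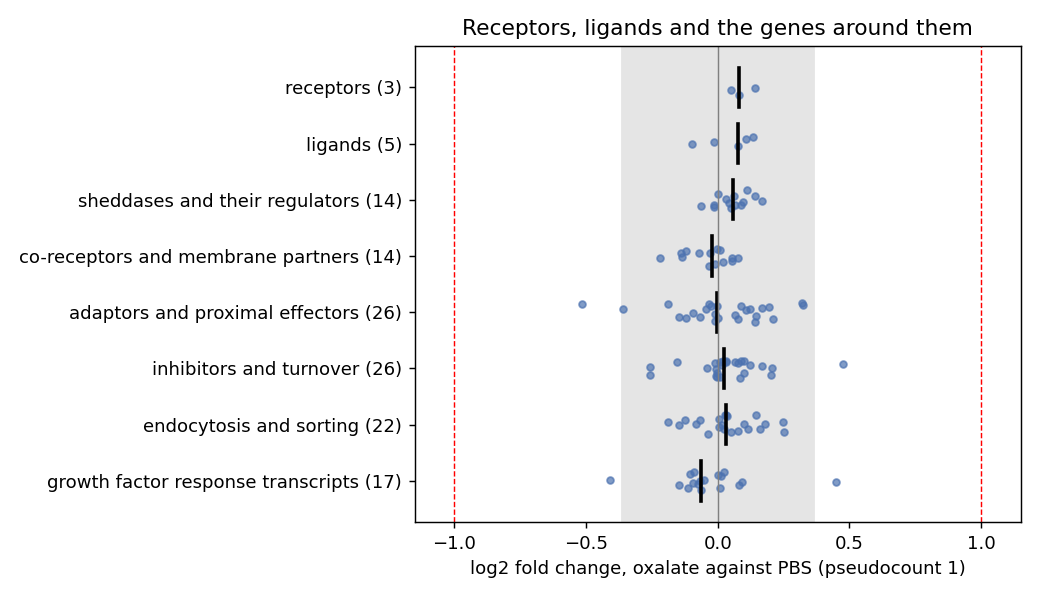
log2 fold change of oxalate against PBS (pseudocount 1) for each gene averaging 1 FPKM or more among the receptors, the ligands and the 6 lists around them, with the number of genes in brackets and black bars for the medians. The grey band is the central 95% of all genes compared (-0.36 to 0.37) and the dashed lines mark 2-fold. No gene reaches the dashed lines, and all receptors and ligands lie in the band.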

How the data were processed

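RNA of 4T1 cells treated with PBS or potassium oxalate was selected by oligo(dT) beads, reverse transcribed from random primers and run on a HiSeq2500, with 1 library per condition. The table the authors deposited gives FPKM for 21911 genes, to 2 decimals. The submitters' processing notes name Bowtie2 2.2.8 and TopHat2 2.1.1; the genome build, annotation and quantification tool are not given in the sources used here. FPKM depends on the transcript length and library total that were used. A strand-specific protocol is not described.

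Identifiers were given GENCODE M21 (GRCm38) symbols, found for 21848 of 21911, which need not be the authors' annotation. Nrdc is named Nrd1 there. Depth was estimated from the steps of FPKM times length in genes with 1 transcript under 1500 bases (74 PBS and 128 oxalate values of up to 8 reads), and reads of other genes from the mean length of their coding transcripts. The filter was a mean FPKM of at least 1, the pseudocount 1 and the threshold 2-fold. Genes named in the lists were the highest pair, the largest rise and fall, any changed 1.5-fold, and all other ligands; Adam17, Muc4 and Egr3 were named after their values were seen. The members and lists were chosen with earlier results of these data known. One marker gene is not reported here. Scripts were tested on simulated data. The software was scipy 1.17.1, numpy 2.4.6, matplotlib 3.10.9 and pandas 2.3.3 under Python 3.11.15. Alternatives covered pseudocounts, scaling, filters, thresholds and transcript lengths.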

Additional observations from a re-analysis of the deposited data

How the results depend on the processing

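No paired analysis was possible because PBS and oxalate have 1 library each, which also leaves no replicate to omit. The number of members changed at least 2-fold was 0 under every alternative run. The 8 members with FPKM above 0 had 32 fold changes under other pseudocounts or scalings. None moved by as much as the distance from the middle to an end of the member's counting interval. That interval is of the log2 ratio without a pseudocount. Of the 32 fold changes, 1 changed sign, that of Hbegf, at 0.0057 after rescaling to TPM. The median of the members, 0.078, ran from 0.050 to 0.10. Over all genes the 67 changed at least 2-fold became 204 at 1.5-fold and, in settings chosen after the values were seen, 4 among genes with 1 coding transcript, which keeps fewer genes, and 1959 with a pseudocount of 0.001 and no filter together. The pseudocount of 0.001 alone gave 100 and all genes listed alone 69. The pairs with both sides transcribed fell from 5 to 1 at a limit of 5 FPKM. With other transcript lengths 3 of 32 interval bounds crossed 0: the lower bound became -0.28 for Egfr and -0.019 for Tgfa with the shortest transcript, and 0.018 for Nrg1 with the longest. Of 63 medians of the lists and of the members 4 moved by at least 0.05, all among genes with 1 coding transcript, and 6 changed sign. Depth limits Btc, Epgn and the genes listed at 0.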
